A study of Homo sapiens with 18 samples.

Results

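Expression of 10 genes of pericellular proteolysis, MMP1, MMP2, MMP7, MMP10, MMP14, MMP15, MMP24, TIMP2, PLAU and PLAUR, was followed in A549 cells given sodium propionate (SP), the salt of a short-chain fatty acid. The genes were chosen by name as matrix metalloproteinases (MMPs), their inhibitor TIMP2, and the urokinase plasminogen activator with its receptor, and all 10 were found among the 61541 genes of the count tables. The choice was made with earlier results of these data known. Counts set beside the share of all genes below are therefore no test of the set. A549 is an established human lung adenocarcinoma line, labelled as a wild-type NSCLC cell line, and every group of the study is this single line, grown in high-glucose DMEM with FBS, with untreated cells and no other salt as control. One table of RNA-seq counts holds untreated cells at day 3 (Control_3D) and cells kept in 5 mM SP for 3 days (SP_3D) or 12 days (SP_12D), and the other holds untreated cells at 24 h (Control_24H) and cells kept in 5 mM SP for 3 h (SP_3H) or 24 h (SP_24H). Each group has 3 libraries, 18 in all, and the labels do not say whether these came from separate cultures. The paper calls the RNA-seq samples of the 3 h and 24 h experiment biological replicates, without saying whether separate cultures were meant. P-values measure only the spread between these libraries, which may be technical at day 3 and day 12, where no such statement is given. SP_12D has no control of its own age and SP_3H is set against cells at 24 h, so in these 2 comparisons SP and time in culture cannot be told apart.

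MMPs are zinc-dependent endopeptidases that cleave collagens, laminin and other proteins around the cell. Secreted members such as MMP1, MMP2, MMP7 and MMP10 leave the cell as inactive proenzymes, whereas membrane-type members such as MMP14, MMP15 and MMP24 stay anchored in the plasma membrane. TIMP2 has a dual role at the cell surface, since it inhibits MMPs but also bridges proMMP2 to MMP14, which then cleaves it to the active form. In a linked system, urokinase (PLAU) bound to its receptor (PLAUR) turns plasminogen into plasmin, a broad protease that can itself activate proMMPs. Both systems are much studied in epithelial-to-mesenchymal transition and invasion of carcinoma cells.

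The libraries held 14187401 to 43765330 counted reads each, and the common biological coefficient of variation was 0.0996 in the table of day 3 and day 12 and 0.199 in the table of 3 h and 24 h, so the earlier times were measured with more error. The epithelial keratins KRT7, KRT8 and KRT18 each lay at or above 1721 CPM (counts scaled to library size) in the mean of every group. Other markers of the epithelial list were lower, with group means of 289 to 1694 CPM for KRT19, 34.7 to 412 for CDH1 and 5.76 to 53.6 for EPCAM. MUC1 was scarce, at 8.70 CPM in Control_3D and 3.12 in SP_3D, and 1.23 in Control_24H and 2.16 in SP_24H. Of 10 macrophage and other leukocyte markers, CD3E and MS4A1 had 0 counts in every group, while the summed level of the list was 19.2 to 21.1 CPM in Control_3D and 37.1 to 41.3 CPM in SP_3D, mostly CD14, and 5.93 to 9.12 CPM in Control_24H and 20.0 to 22.3 CPM in SP_24H. The 8 fibroblast markers summed to 18.7 to 20.0 CPM in Control_3D and 90.7 to 107 CPM in SP_3D, and to 8.68 to 25.6 CPM in Control_24H and 81.9 to 108 CPM in SP_24H. COL1A1 made up most of the sum in these groups, and it read 37.0 CPM in SP_12D. THY1 was next, at 3.29 CPM in Control_3D, 29.6 in SP_3D and 30.0 in SP_12D, and 2.39 in Control_24H and 19.0 in SP_24H. LUM read 0.903 CPM in Control_3D, 3.76 in SP_3D and 7.49 in SP_12D, and 0.570 in Control_24H and 0.757 in SP_24H. COL1A2 had 0 counts in Control_3D, SP_3D, SP_12D and SP_3H. DCN had 0 counts in Control_3D and all 3 groups of the second table. The 6 endothelial markers, with KDR at 0 counts in Control_3D, VWF in Control_24H and SP_3H and TEK in SP_3H and SP_24H, summed to at most 3.13 CPM in any library.

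Changes were tested with edgeR's quasi-likelihood test over all genes of a table that passed its expression filter, and "rose" and "fell" mean a Benjamini-Hochberg adjusted p under 0.05. MMP1 and MMP10 had too few reads to pass the filter, which leaves 8 of the 10 genes tested. With SP for 3 days, MMP2, MMP14, MMP15 and TIMP2 rose and MMP7 fell, so 4 of 8 tested genes rose against 25.2% of all tested genes and 1 fell against 23.3%. At the study's stricter thresholds, a fold change of 2 or more with an adjusted p below 0.0001, MMP2, MMP15 and TIMP2 were higher, where 6.58% of all genes were. The study used these thresholds with DESeq2, whereas here they were applied to the edgeR fit. With SP for 12 days, MMP2, MMP15, TIMP2 and PLAU rose and 0 fell at an adjusted p under 0.05, against 26.4% and 23.4% of all genes, and the same MMP2, MMP15 and TIMP2 passed the stricter thresholds, against 6.88%.

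After 3 h of SP, MMP15 rose and MMP24 and PLAU fell, against 7.39% of all genes higher and 4.11% lower. After 24 h, MMP14, MMP15 and TIMP2 rose and MMP7 and MMP24 fell, against 16.8% and 12.0% of all genes. By the stricter thresholds 0 of the 8 were higher at 3 h, where 0% of all genes were, and 0 at 24 h, where 0.622% were. With DESeq2, MMP15 (log2 2.31, adjusted p = 1.13e-15) and TIMP2 (log2 1.71, adjusted p = 2.18e-06) passed them at 24 h. The share of all genes with DESeq2 is not given here. Counted by ranges that did not overlap, 4 of the 8 lay above control and 1 below at 3 days (30.5% and 30.7% of all genes), 5 and 1 at 12 days (28.7% and 27.3%), 1 and 2 at 3 h (15.6% and 11.7%), and 4 and 2 at 24 h (24.6% and 19.8%). The median log2 fold change of the 8 genes was −0.06 at 3 h, 0.65 at 24 h, 0.42 at 3 days and 0.35 at 12 days, and that of all tested genes lay between −0.02 and 0.00339. The 2 comparisons of a table share their control libraries, and in bulk RNA a change in the share of cells that express a gene cannot be told apart from a change in RNA per cell. The fibroblast and leukocyte sums above were higher in SP_3D and SP_24H than in their controls, as was the fibroblast sum in SP_12D (68.1 to 93.0 CPM, against 16.2 to 30.0 CPM of the leukocyte list), and their part in the results below was not tested.

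**Figure D1:**
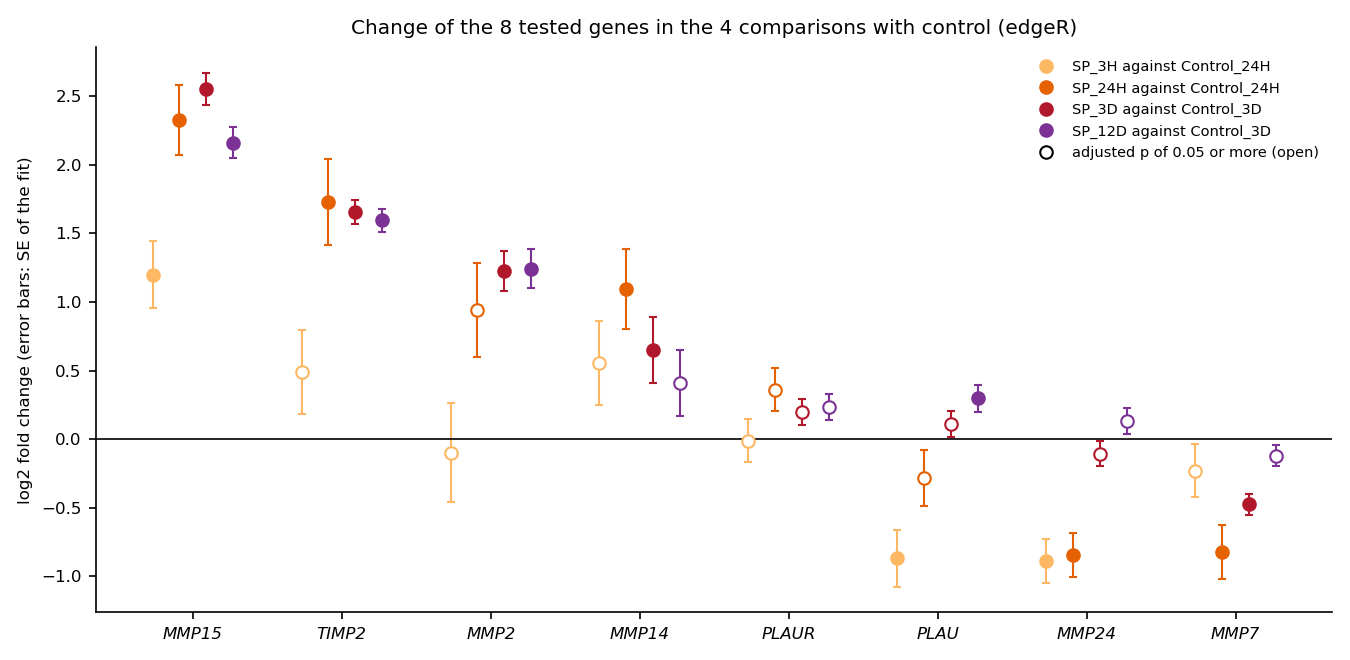
Log2 fold change (vertical axis) of the 8 tested genes in the 4 comparisons with control, with bars for the SE of the edgeR fit and open points for an adjusted p of 0.05 or more. MMP15 is above 0 and past the threshold in all 4 comparisons, from 1.20 at 3 h to 2.56 at 3 days, and MMP24 and PLAU lie near −0.9 at 3 h.

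The collagenase MMP1, which opens fibrillar collagens, was close to undetectable. Its exons (ENSG00000196611, GRCh38, chromosome 11, 102789401 to 102798160, minus strand) gave 1 read in each Control_3D library, 0 reads in all 3 SP_3D libraries and 2, 3 and 6 reads in the SP_12D libraries. In the second table Control_24H held 0 reads, which allows up to 0.0447 CPM over the group, SP_3H held 0, 2 and 0 reads and SP_24H held 0, 2 and 1. At this depth no change against control was detectable, the ratio of summed reads at 12 days being 3.31 (95% exact interval 0.875 to 18.5, counting error only). Of these exons, 223 bp also belong to WTAPP1 on the opposite strand, and strand was not stated for the counting.

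MMP10 (ENSG00000166670, chromosome 11, 102770502 to 102780628, minus strand), a stromelysin that degrades proteoglycans and can activate other proMMPs, was nearly as low. Control_3D held 2, 0 and 2 reads, SP_3D 6, 9 and 7 and SP_12D 3, 10 and 24. The SP_3D libraries all lay above the controls, and a single library, SP_12D replicate 3, held 24 of the 37 reads at 12 days. The ratio of summed reads was 5.87 (95% exact interval 1.99 to 23.4) at 3 days and 8.36 (3.00 to 32.3) at 12 days, intervals that cover counting error and not the spread between libraries. In fits without the filter on low counts the log2 fold change of MMP10 was 2.49 at 3 days (adjusted p = 0.00366) and 2.96 at 12 days (adjusted p = 8.04e-05). With DESeq2 the adjusted p was weaker, at 0.0319 at 3 days and 0.00928 at 12 days. At 24 h, 8 reads in control stood against 8 with SP, a ratio of 0.685 (0.224 to 2.09).

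MMP7 (ENSG00000137673, chromosome 11, 102520508 to 102530750, minus strand), or matrilysin, is a small secreted enzyme made mainly by epithelial cells, and its gene lies in the same cluster as MMP1 and MMP10, of which it alone was tested. It read 94.7, 93.6 and 98.1 CPM in Control_3D, 69.7, 67.0 and 69.0 in SP_3D and 91, 89.7 and 82.9 in SP_12D. The SP_3D libraries lay together below every control, whereas those of 12 days lay just under them. MMP7 fell at 3 days by 0.48 on the log2 scale (SE 0.07, adjusted p = 7.21e-05), and the change at 12 days was −0.12 (SE 0.07, adjusted p = 0.192). In the second table it read 106, 97.1 and 61.9 CPM in Control_24H, 79.4, 78.0 and 68.3 in SP_3H and 58.4, 47.8 and 43.7 in SP_24H. The groups did not overlap at 24 h, although Control_24H replicate 3 lay close to SP_24H. The fall at 24 h was 0.82 (SE 0.20, adjusted p = 0.0127), and the adjusted p became 0.0556 without SP_24H replicate 2 and 0.0554 without SP_24H replicate 3. With an offset for each library's GC content and gene length MMP7 still passed, but the value was −0.31 at 3 days and −0.52 at 24 h. The change at 3 h was −0.23 (SE 0.19, adjusted p = 0.526).

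Promoter sequences of 7 of the 10 genes were taken from RefSeq (GRCh38.p14), and 4 of them are shown because MMP7 and MMP10, of the same gene cluster, share a layout that the membrane-type MMP15 and MMP24 lack. Each line gives the bases from 120 to 11 before the transcription start, 5′ to 3′ on the gene's strand, with motif matches in capitals.
MMP7 (chr11:102530758-102530867, minus strand): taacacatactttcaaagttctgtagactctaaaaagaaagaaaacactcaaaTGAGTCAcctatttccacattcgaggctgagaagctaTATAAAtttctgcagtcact
MMP10 (chr11:102780639-102780748, minus strand): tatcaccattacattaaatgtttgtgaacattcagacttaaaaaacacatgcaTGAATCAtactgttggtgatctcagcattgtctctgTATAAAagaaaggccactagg
MMP15 (chr16:58025634-58025743, plus strand): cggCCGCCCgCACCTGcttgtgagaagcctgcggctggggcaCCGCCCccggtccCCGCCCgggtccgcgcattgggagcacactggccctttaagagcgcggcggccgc
MMP24 (chr20:35226570-35226679, plus strand): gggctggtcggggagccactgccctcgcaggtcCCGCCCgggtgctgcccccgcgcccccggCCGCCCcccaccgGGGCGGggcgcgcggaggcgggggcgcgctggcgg

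The capitals mark TGANTCA (the AP-1 site), TATAAA (the TATA box), GGGCGG (the core bound by Sp1) and CAGGTG (the E-box of EMT repressors), each searched on both strands. In MMP7 and MMP10 a TGANTCA match began 67 bases before the start, and TATAAA began 30 and 31 bases before it. Over 250 bases, TGANTCA was found in 6.57% and TATAAA in 10.7% of 35116 RefSeq promoters, GGGCGG in 42.6% and CAGGTG in 17.5%. MMP15 held 5 matches of GGGCGG and 2 of CAGGTG in its 250 bases, and MMP24 held 3 of GGGCGG. GC content of these 250 bases was 33.6% in MMP7 and 34.4% in MMP10, against 74.8% in MMP15 and 77.6% in MMP24. One more motif, AGGAAG (the core bound by ETS factors, 28.7% of promoters), matched at 169 and 145 bases before the start of MMP7, at 15 bases in PLAUR and at 221 bases before one start of PLAU, and PLAUR held a TGANTCA match at 186 bases. These matches describe the letters of the windows and no binding was measured.

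**Figure D2:**
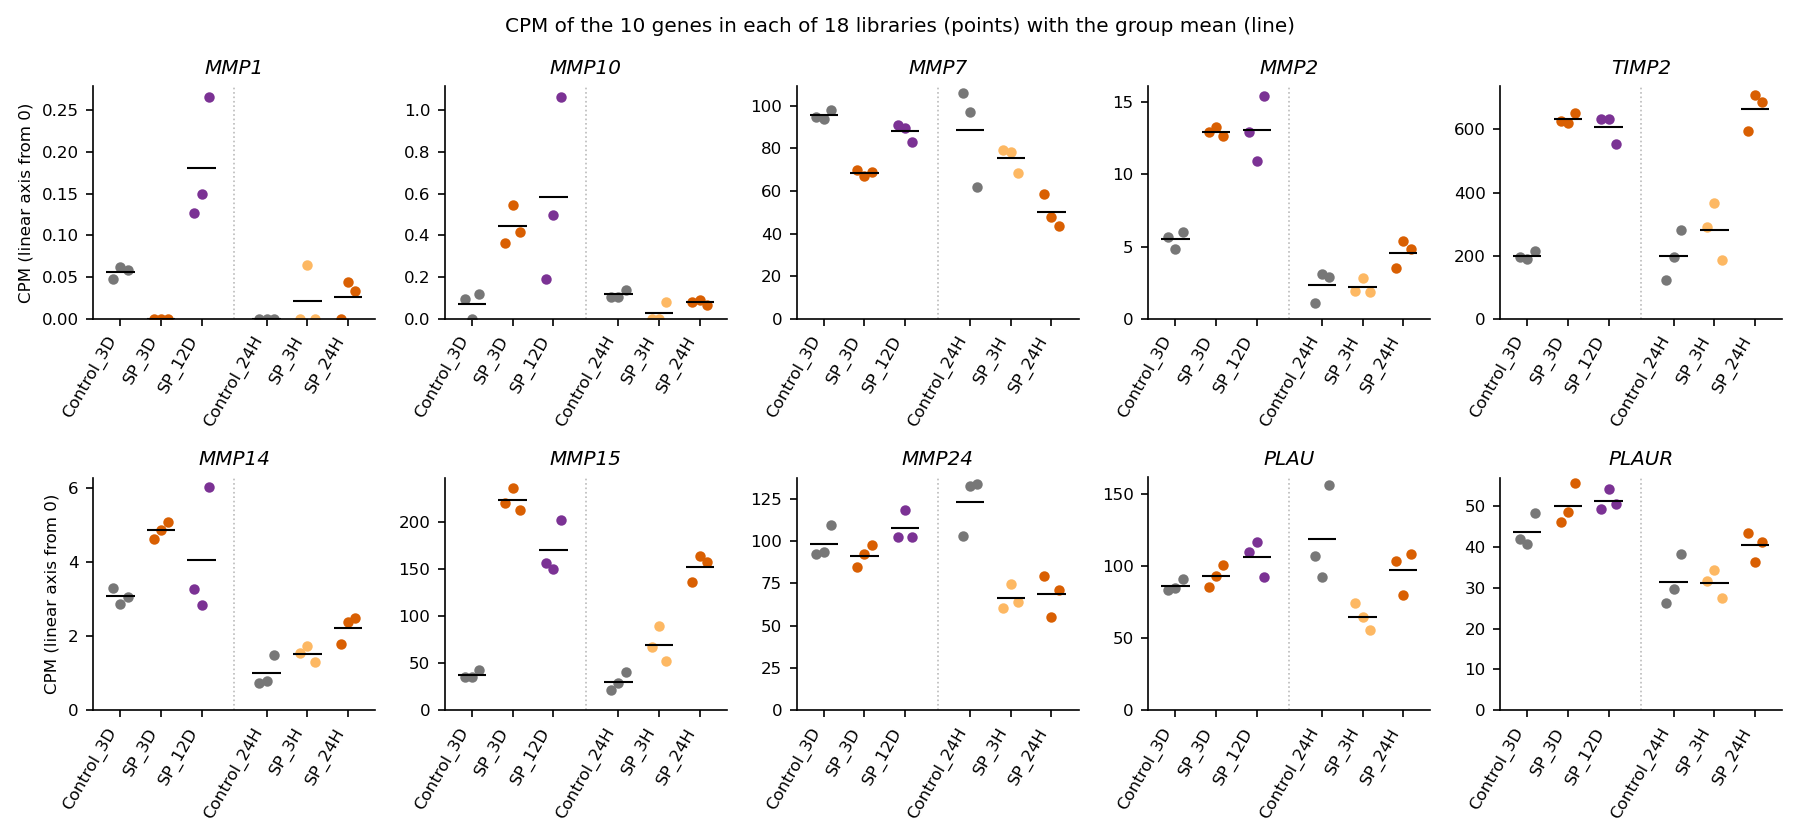
CPM of each of the 10 genes in each of the 18 libraries (points) with group means (lines), on linear axes from 0, the 2 tables parted by a dotted line. MMP15 and TIMP2 stand above their controls at 24 h, 3 days and 12 days without overlap, MMP7 lies lowest at 3 days in one table and at 24 h in the other, and MMP1 stays under 0.3 CPM throughout.

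The gelatinase MMP2 (ENSG00000087245, chromosome 16, 55389700 to 55506691), which cleaves type IV collagen of basement membranes, was low in control cells and rose over days. It read 5.69, 4.82 and 6.03 CPM in Control_3D, 12.9, 13.2 and 12.6 in SP_3D and 12.9, 10.9 and 15.4 in SP_12D, every SP library above every control. MMP2 rose 2.34-fold at 3 days (log2 1.22, SE 0.14, adjusted p = 4.51e-06) and 2.37-fold at 12 days (log2 1.24, SE 0.14, adjusted p = 3.23e-06). With any 1 of the 9 libraries left out the adjusted p of both changes stayed at or under 8.16e-05.

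Over hours MMP2 read 1.11, 3.12 and 2.88 CPM in Control_24H, 1.90, 2.85 and 1.83 in SP_3H and 3.52, 5.39 and 4.80 in SP_24H. The SP_3H libraries lay among the controls and those of 24 h lay above them. The log2 fold change was −0.10 (SE 0.36, adjusted p = 0.908) at 3 h and 0.94 (SE 0.34, adjusted p = 0.0663) at 24 h, so neither passed. With the replicate number as a block, which pairs SP_24H with Control_24H, the change at 24 h was 0.98 with an adjusted p of 0.0264. Without Control_24H replicate 3 the adjusted p at 24 h was 0.0482.

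TIMP2 (ENSG00000035862, chromosome 17, 78852977 to 78925387, minus strand), the inhibitor that also carries proMMP2 to MMP14, had the highest mean level per length of the 10 genes in all 4 SP groups, overlapping with MMP7 at 3 h, and it rose about 3-fold at 24 h, 3 days and 12 days. It read 196, 191 and 215 CPM in Control_3D, 625, 619.5 and 652 in SP_3D and 633, 632 and 553 in SP_12D. The lowest SP library stood more than 300 CPM above the highest control. TIMP2 rose 3.15-fold at 3 days (log2 1.66, SE 0.09, adjusted p = 7.02e-10) and 3.02-fold at 12 days (log2 1.60, SE 0.09, adjusted p = 7.73e-10). In the second table it read 122, 195 and 283 CPM in Control_24H, 289.9, 366 and 188 in SP_3H and 596, 708 and 686 in SP_24H. At 3 h the groups overlapped (log2 0.49, SE 0.31, adjusted p = 0.377), and at 24 h they did not, with a 3.32-fold rise (log2 1.73, SE 0.32, adjusted p = 0.00418). Of its exons, 591 bp also lie in CEP295NL on the same strand or ENSG00000267601 on the opposite one.

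MMP14 (ENSG00000157227, chromosome 14, 22836560 to 22849041), the membrane-type enzyme that activates proMMP2 and cleaves collagen itself, was scarce in this line. It read 3.30, 2.88 and 3.07 CPM in Control_3D, 4.63, 4.88 and 5.08 in SP_3D and 3.29, 2.84 and 6.03 in SP_12D. All SP_3D libraries lay above the controls, but at 12 days replicate 3 alone did. MMP14 rose 1.57-fold at 3 days (log2 0.65, SE 0.24, adjusted p = 0.0342) and changed by 0.41 (SE 0.24, adjusted p = 0.172) at 12 days, a value that became −0.04 without SP_12D replicate 3. The call at 3 days was lost with any 1 of the 6 compared libraries left out (adjusted p = 0.0633 without Control_3D replicate 1, 0.103 without replicate 2 and 0.0835 without replicate 3, and 0.0644, 0.0824 and 0.0966 without SP_3D replicates 1, 2 and 3), and with the offset for GC content and length (0.0652). Without SP_12D replicate 2 the adjusted p at 12 days was 0.033.

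Over hours MMP14 read 0.741, 0.793 and 1.51 CPM in Control_24H, 1.55, 1.75 and 1.30 in SP_3H and 1.78, 2.39 and 2.50 in SP_24H. The 24 h libraries lay above all 3 controls, and those of 3 h lay around the highest one. It rose 2.13-fold at 24 h (log2 1.09, SE 0.29, adjusted p = 0.0209), and the change at 3 h was 0.56 (SE 0.31, adjusted p = 0.304). The call at 24 h was lost without Control_24H replicate 1 (adjusted p = 0.0797) or 2 (0.0675) and without SP_24H replicate 2 (0.0755) or 3 (0.0703).

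MMP15 (ENSG00000102996, chromosome 16, 58025754 to 58046901), also called MT2-MMP, is a transmembrane relative of MMP14, and it had the largest log2 fold change of the 8 tested genes in each comparison with control. It read 35.8, 35.4 and 42.5 CPM in Control_3D, 219, 236 and 213 in SP_3D and 157, 149.8 and 202 in SP_12D. The lowest SP library was more than 3 times the highest control. MMP15 rose 5.88-fold at 3 days (log2 2.56, SE 0.12, adjusted p = 1.9e-10) and 4.48-fold at 12 days (log2 2.16, SE 0.11, adjusted p = 7.71e-10). Its rise was present at the first time sampled: it read 21.6, 28.9 and 40.5 CPM in Control_24H, 67.3, 89.4 and 52.4 in SP_3H and 136, 164 and 157 in SP_24H, 3 ranges that did not overlap. The fold change was 2.30 at 3 h (log2 1.20, SE 0.25, adjusted p = 0.0142) and 5.02 at 24 h (log2 2.33, SE 0.25, adjusted p = 2.91e-04). The call at 3 h was lost without Control_24H replicate 2 (adjusted p = 0.058) or SP_3H replicate 2 (0.0509), and it was 0.0605 when only these 2 groups were fitted.

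MMP24 (ENSG00000125966, chromosome 20, 35226690 to 35276998), or MT5-MMP, is a membrane-type MMP best known from neurons, where it cleaves cadherins, and here it was among the most abundant MMP transcripts of control cells. It read 103, 132 and 134 CPM in Control_24H, 60.3, 74.9 and 64.1 in SP_3H and 79.4, 55.2 and 71.0 in SP_24H, every SP library below every control. MMP24 fell by 0.89 on the log2 scale at 3 h (SE 0.16, adjusted p = 0.008) and by 0.84 at 24 h (SE 0.16, adjusted p = 0.00456). In the first table it read 92.3, 93.4 and 109.6 CPM in Control_3D, 84.6, 92.4 and 97.4 in SP_3D and 102, 118 and 102 in SP_12D, groups that overlapped. The change was −0.11 (SE 0.09, adjusted p = 0.369) at 3 days and 0.13 (SE 0.09, adjusted p = 0.255) at 12 days. After a correction of each library for GC content and gene length, the value at 3 days was −0.26 with an adjusted p of 0.0114. MMP24 shares 968 bp of exons with MMP24OS or ENSG00000279253 on the opposite strand, so reads of these genes could be mixed.

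PLAU (ENSG00000122861, chromosome 10, 73909177 to 73917496), the secreted protease urokinase, fell at 3 h. It read 107, 92.3 and 156 CPM in Control_24H, 74.4, 64.7 and 55.6 in SP_3H and 104, 80.1 and 108 in SP_24H. The SP_3H libraries lay below every control, and of those at 24 h replicate 2 lay below the controls and the others among them. The fall at 3 h was 0.87 on the log2 scale (SE 0.21, adjusted p = 0.0249), and the change at 24 h was −0.28 (SE 0.20, adjusted p = 0.32), or −0.40 with an adjusted p of 0.039 when the replicate block was joined with the offset for GC content and length. The call at 3 h was lost without SP_3H replicate 2 (adjusted p = 0.0877) or 3 (0.0709), and it was 0.0649 when only these 2 groups were fitted.

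Over days PLAU read 83.2, 84.9 and 91.3 CPM in Control_3D, 85.4, 93.4 and 101 in SP_3D and 109.6, 117 and 92.2 in SP_12D. All SP_12D libraries exceeded the controls, the lowest of them by under 1 CPM. PLAU changed by 0.11 (SE 0.10, adjusted p = 0.368) at 3 days and rose 1.23-fold at 12 days (log2 0.30, SE 0.10, adjusted p = 0.0169). That call was lost without Control_3D replicate 1 (adjusted p = 0.0758) or 2 (0.058) and without SP_12D replicate 1 (0.0784) or 2 (0.101). PLAU shares 915 bp of exons with C10orf55 on the opposite strand.

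PLAUR (ENSG00000011422, chromosome 19, 43646095 to 43670547, minus strand), the lipid-anchored receptor that holds urokinase at the cell surface, passed the test in none of the 4 comparisons with control. It read 41.8, 40.7 and 48.3 CPM in Control_3D, 46.0, 48.6 and 55.5 in SP_3D and 49.2, 54.1 and 50.6 in SP_12D. All 3 libraries of 12 days and 2 of the 3 at 3 days exceeded the highest control. The log2 fold change was 0.20 (SE 0.10, adjusted p = 0.0996) at 3 days and 0.23 (SE 0.10, adjusted p = 0.0514) at 12 days. The adjusted p at 12 days was 0.00377 when corrected for GC content and length, 0.0195 without Control_3D replicate 3 and 0.0374 without SP_12D replicate 3, and that at 3 days was 0.0251, 0.0358 and 0.0491 under the same changes. In the second table PLAUR read 26.3, 29.6 and 38.2 CPM in Control_24H, 31.7, 34.3 and 27.4 in SP_3H and 43.3, 36.4 and 41.3 in SP_24H. Its log2 fold change was −0.01 (SE 0.16, adjusted p = 0.975) at 3 h and 0.36 (SE 0.16, adjusted p = 0.113) at 24 h, the latter 0.0198 without Control_24H replicate 3.

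The times with SP were next compared with each other, where time with SP and time in culture cannot be told apart. From 3 h to 24 h, MMP15 rose 2.19-fold (log2 1.13, SE 0.24, adjusted p = 0.0127) and TIMP2 rose 2.36-fold (log2 1.24, SE 0.31, adjusted p = 0.0241), 2 of 8 tested genes against 11.7% of all genes higher and 8.40% lower. The call of MMP15 was lost without SP_24H replicate 2 (adjusted p = 0.0502), and that of TIMP2 without SP_3H replicate 1 (0.0693) or 3 (0.0758), without SP_24H replicate 2 (0.0774) or 3 (0.0677), or with no filter on low counts (0.109). MMP2 (log2 1.04, SE 0.34, adjusted p = 0.0609), PLAU (0.59, SE 0.21, adjusted p = 0.0721) and MMP7 (−0.59, SE 0.19, adjusted p = 0.0604) lay just outside the threshold, and their groups did not overlap, as in 6 of 8 genes higher and 1 lower (23.3% and 21.6% of all genes). Without Control_24H replicate 1 the adjusted p was 0.017 for MMP2 and 0.0378 for MMP7, and without Control_24H replicate 3 it was 0.0473 for MMP2, 0.00987 for MMP7 and 0.0193 for PLAU.

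From 3 to 12 days of SP, MMP7 rose 1.28-fold (log2 0.36, SE 0.07, adjusted p = 0.0081) and MMP15 fell by 0.39 on the log2 scale (SE 0.11, adjusted p = 0.0353), against 4.46% of all genes higher and 3.65% lower. The call of MMP7 was lost without SP_3D replicate 2 (adjusted p = 0.0593) or SP_12D replicate 1 (0.0635). That of MMP15 was lost without Control_3D replicate 1 (0.0539), without SP_3D replicates 1 (0.0797), 2 (0.134) or 3 (0.0748), and without SP_12D replicates 1 (0.145) or 2 (0.0997). SP_12D replicate 3 was the highest of its group in MMP1, MMP10, MMP14, MMP15 and MMP2 and the lowest in TIMP2, PLAU and MMP7. Without it, MMP14 was lower at 12 than at 3 days (log2 −0.69, adjusted p = 0.00462), PLAU higher (0.27, adjusted p = 0.0116) and MMP24 higher (0.26, adjusted p = 0.024).

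A joint fit of all 18 libraries tested whether the change at 3 days differed from that at 24 h, each against its own control. MMP24 was the only one of the 8 genes past the threshold (difference 0.78 on the log2 scale, SE 0.19, adjusted p = 0.0226), where 3.13% of all genes had a higher and 3.15% a lower change at 3 days. The call was lost without Control_3D replicate 1 (adjusted p = 0.0666) or 2 (0.0595), SP_3D replicate 2 (0.0695) or 3 (0.0565), or SP_24H replicate 2 (0.0839). The difference was 0.38 (SE 0.20, adjusted p = 0.284) for MMP7, 0.28 (SE 0.29, adjusted p = 0.628) for MMP15 and −0.03 (SE 0.34, adjusted p = 0.975) for TIMP2. Without Control_24H replicate 3 that of MMP7 was 0.53 with an adjusted p of 0.0285. Days and hours are in separate tables, so time and table cannot be told apart in this test.

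To compare levels between genes, counts were divided by exon length and scaled to the same total in each library (TPM). The length was the union of exons, 4457 bp for PLAUR and 2320 bp for MMP7, whose longest transcripts have 1610 and 1323 bp. For MMP24 both lengths are 4376 bp. Orders and shares between genes therefore hold for the union of exons and could differ with another length. In Control_3D the order was MMP7 (148 ± 3.11, SD, n = 3), TIMP2 (116 ± 3.66), PLAU (106 ± 4.04), MMP24 (81.0 ± 5.74), PLAUR (35.2 ± 2.13), MMP15 (32.2 ± 2.39), MMP2 (4.21 ± 0.311) and MMP14 (2.40 ± 0.133), with only PLAUR and MMP15 overlapping as neighbours among these 8. In SP_3D TIMP2 (370.2 ± 8.54) led and MMP15 (191 ± 10.6) was next, above PLAU (115 ± 7.75) and MMP7 (107.5 ± 3.63), which overlapped. MMP24 (76.0 ± 4.11), PLAUR (40.7 ± 3.42), MMP2 (9.99 ± 0.315) and MMP14 (3.82 ± 0.116) followed without overlap. The same pair led at 24 h of SP (TIMP2 417 ± 40.6, MMP15 141 ± 14.4, the latter overlapping with PLAU at 129 ± 18.3), whereas in Control_24H PLAU, MMP7, TIMP2 and MMP24 overlapped in turn.

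Summed over 23 MMP genes, the 7 above and 16 others, MMP transcripts came to 299 ± 8.97 TPM in Control_3D, 458 ± 11.3 in SP_3D and 455 ± 31.7 in SP_12D. They came to 297 ± 30.4 TPM in Control_24H, 287 ± 45.9 in SP_3H and 349 ± 3.04 in SP_24H. MMP7 supplied 49.7% ± 1.46 of the sum in Control_3D and 23.5% ± 1.09 in SP_3D, while MMP15 supplied 10.8% ± 0.535 and 41.8% ± 1.29. The share of the 6 membrane-type genes (MMP14, MMP15, MMP16, MMP17, MMP24 and MMP25) was 47.1% ± 1.47 in Control_3D, 70.7% ± 0.848 in SP_3D and 64.4% ± 1.55 in SP_12D, and 49.7% ± 10.6 in Control_24H, 53.4% ± 3.42 in SP_3H and 72.5% ± 2.96 in SP_24H. The ranges of SP_3D, SP_12D and SP_24H lay above those of their controls, and that of SP_3H lay within its control's. Per length, TIMP2 stood at 48.5 ± 3.98 times MMP14 in Control_3D and 96.9 ± 3.17 times in SP_3D, and at 3.62 ± 0.150 and 1.94 ± 0.150 times MMP15.

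**Figure D3:**
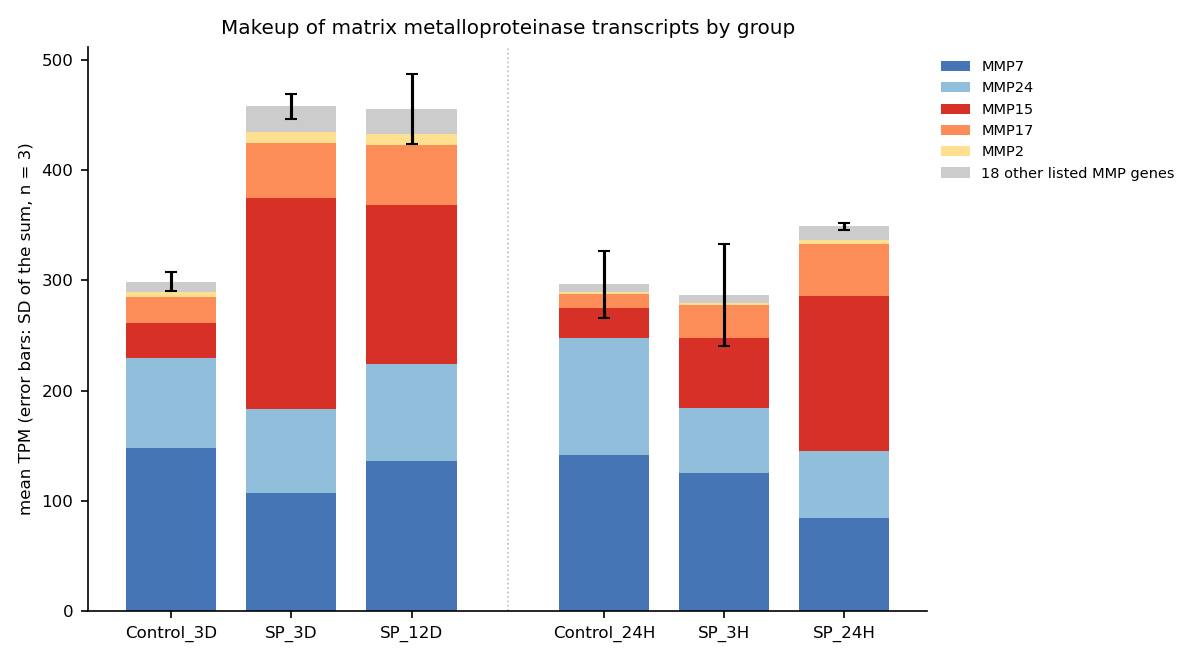
Stacked mean TPM of MMP genes (vertical axis) in the 6 groups, with bars for the SD of the sum over 3 libraries and the 2 tables parted by a dotted line. MMP7 and MMP24 make up most of the sum in both controls, and MMP15 grows from 32.2 to 191 TPM at 3 days and from 27.1 to 141 TPM at 24 h.

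Among the 16 other MMP genes, 7 were tested over days and 6 over hours. MMP9, MMP11, MMP16, MMP17 and MMP28 rose at 3 days and 0 fell (25.2% and 23.3% of all genes), and at 12 days these and MMP21 rose (26.4%). Of these, MMP21 and MMP28 were near the threshold, MMP21 at 12 days being lost with DESeq2 (adjusted p = 0.175), with no filter (0.0673), with only the 2 groups (0.0516) and without Control_3D replicate 1 (0.148) or 2 (0.0732), SP_3D replicate 2 (0.0524) or SP_12D replicate 3 (0.156). MMP28 at 3 days was lost without Control_3D replicate 2 (0.0606) or 3 (0.0607), without SP_3D replicate 2 (0.0862), and with offset and block together (0.0729). MMP11, a stromelysin best known from tumour stroma, went from 1.41 ± 0.354 CPM to 10.2 ± 0.976 at 3 days (log2 2.85, SE 0.26, adjusted p = 5.49e-07) and rose at 24 h (log2 2.99, SE 0.49, adjusted p = 0.00209). MMP17, a lipid-anchored membrane-type MMP, rose 2.11-fold at 3 days (SE 0.08 on the log2 scale, adjusted p = 4.61e-08), 2.20-fold at 3 h (SE 0.27, adjusted p = 0.0241) and 3.51-fold at 24 h (SE 0.27, adjusted p = 0.00131). MMP16, another membrane-type MMP, went from 1.28 ± 0.117 CPM to 7.57 ± 2.18 at 12 days (log2 2.56, SE 0.24, adjusted p = 4.19e-07). The gelatinase MMP9 gave 12 reads in Control_3D, 55 in SP_3D and 59 in SP_12D, so it passed the filter of the first table through the SP libraries, and its call is no support for a change of the list. Of its exons, 430 bp are shared with SLC12A5-AS1. The call of MMP17 at 3 h was lost without Control_24H replicate 1 (adjusted p = 0.0832) or 2 (0.0826) and without SP_3H replicate 1 (0.0774) or 2 (0.0958), and was 0.0629 with the replicate block. At 24 h, MMP11, MMP17 and MMP25 rose and 0 fell (16.8% and 12.0% of all genes), MMP25 by 1.73 on the log2 scale (SE 0.39, adjusted p = 0.00983) with 1454 bp of exons shared with MMP25-AS1.

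Of 12 inhibitors and regulators of MMPs, 11 were tested, of which 8 rose and 1 fell at 3 days and 7 rose and 1 fell at 12 days, while 1 rose at 3 h, 5 rose at 24 h and 0 fell at either time. Of all genes tested, 25.2% rose and 23.3% fell at 3 days, 26.4% and 23.4% at 12 days, 7.39% and 4.11% at 3 h and 16.8% and 12.0% at 24 h, shares that hold for each list that follows. TFPI2, a secreted inhibitor of plasmin and of MMPs, was the most abundant of those named: it went from 151 ± 19.8 CPM to 708 ± 97.6 at 3 days (log2 2.23, SE 0.14, adjusted p = 8.94e-09) and 814 ± 121 at 12 days, and rose 2.23-fold at 24 h (adjusted p = 1.9e-04). RECK, a membrane-anchored inhibitor of MMP2, MMP9 and MMP14, rose 2.52-fold at 3 days (log2 1.33, SE 0.12, adjusted p = 2.6e-07), 1.68-fold at 3 h (adjusted p = 0.0163) and 1.85-fold at 24 h (adjusted p = 0.00329), and at 3 h the adjusted p was 0.0552 without Control_24H replicate 1 and 0.0745 without SP_3H replicate 2. TIMP3, which binds to the matrix, gave 2 reads in Control_3D and 30 in SP_3D, a ratio of 16.0 (95% exact interval 4.06 to 138). It is counted among the rises at 3 and 12 days. However, it passed the filter of the first table through the SP libraries, so its calls are no support for a change of the list. SPOCK2, a matrix proteoglycan, rose at 12 days (log2 1.48, SE 0.25, adjusted p = 1.67e-04) and at 24 h (0.90, SE 0.25, adjusted p = 0.0228), the latter lost without Control_24H replicate 1 (0.0876), without SP_24H replicate 1 (0.0503) or 2 (0.0884), and with the offset for GC content and length (0.0661). TIMP1, a secreted inhibitor with little effect on transmembrane MMPs such as MMP14, went the other way. It fell by 0.43 on the log2 scale at 3 days (SE 0.10, adjusted p = 0.00297) and 0.44 at 12 days (SE 0.10, adjusted p = 0.00233). Its change at 24 h was −0.12 (SE 0.11, adjusted p = 0.451).

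**Figure D4:**
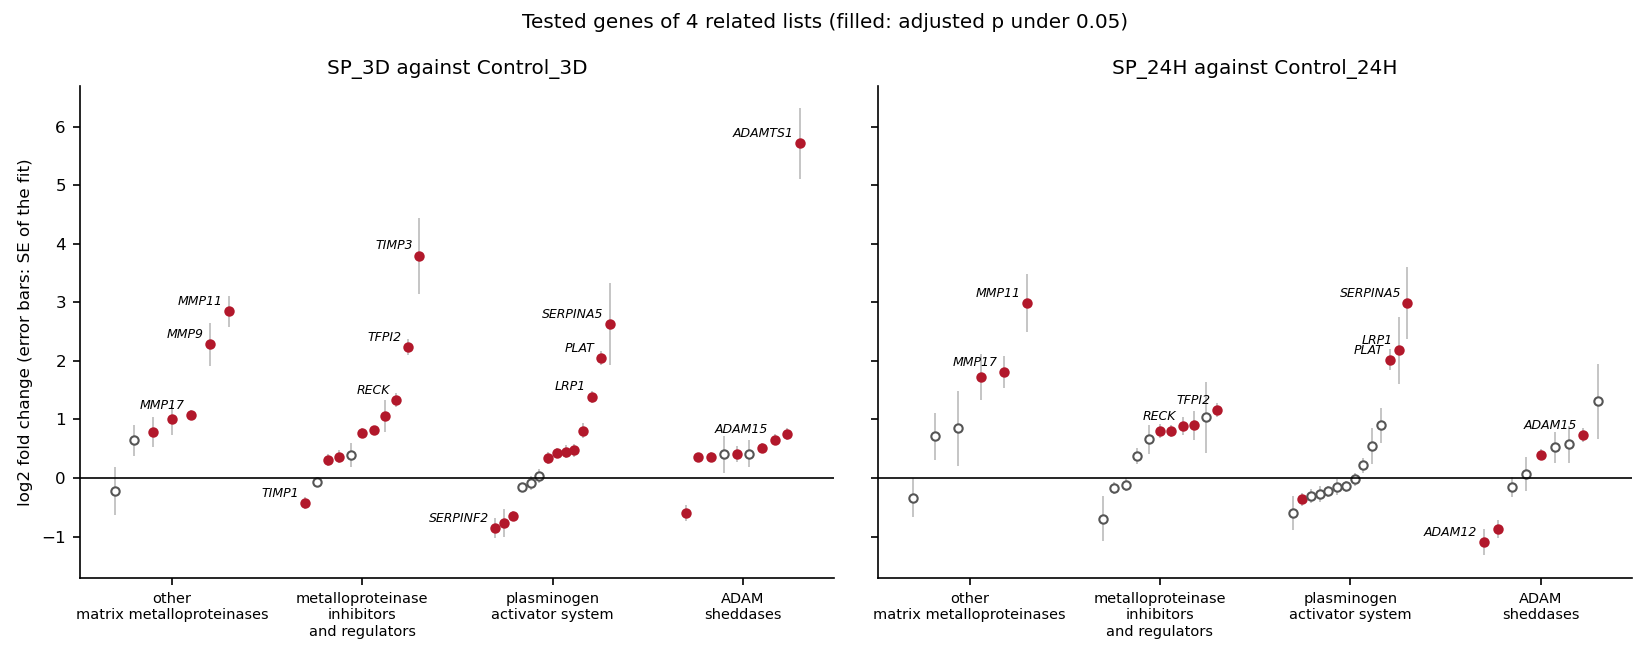
Log2 fold change (vertical axis, bars for the SE of the fit) of each tested gene of 4 related lists, at 3 days (left) and 24 h (right), filled where the adjusted p is under 0.05. At 3 days, 5 other MMPs, 8 inhibitors and regulators, 8 genes of the plasminogen system and 7 ADAM genes are filled above 0.

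Of 19 further genes of the plasminogen system, 14 were tested, of which 8 rose and 3 fell at 3 days and 7 rose and 3 fell at 12 days, while 1 rose and 1 fell at 3 h and 3 rose and 1 fell at 24 h. Apart from the rises at 3 and 12 days, these numbers were thus near the shares of all genes. PLAT, the tissue-type plasminogen activator, which cleaves plasminogen as PLAU does, rose at each time, from 5.76 ± 0.850 CPM to 23.8 ± 0.505 at 3 days (log2 2.05, SE 0.12, adjusted p = 1.74e-09), 3.22-fold at 12 days (adjusted p = 1.28e-08), 2.62-fold at 3 h (adjusted p = 0.00178) and 4.05-fold at 24 h (adjusted p = 1.01e-04). SERPINA5, an inhibitor of urokinase and of activated protein C, went from 2.05 ± 0.500 CPM to 12.7 ± 1.69 at 3 days (log2 2.63, SE 0.70, adjusted p = 0.0166) and 11.3 ± 10.2 at 12 days (log2 2.49, SE 0.70, adjusted p = 0.0201). At 24 h it rose from 0.411 CPM in Control_24H to 3.15 in SP_24H (log2 2.99, SE 0.61, adjusted p = 0.0069). Of Control_24H and SP_3H, the larger mean of SERPINA5 was only 10.3 counts. Its calls at 3 and 12 days were lost without Control_3D replicate 1 (0.0645 and 0.0742) or 2 (0.05001 and 0.0586) and with no filter (0.0562 and 0.0652). LRP1, the receptor that takes up urokinase bound to its inhibitor, rose 2.62-fold at 3 days (log2 1.39, SE 0.11, adjusted p = 3.75e-08). It rose 2.46-fold at 12 days (adjusted p = 6.74e-08) and 4.53-fold at 24 h (log2 2.18, SE 0.58, adjusted p = 0.0221). Its call at 24 h was lost without Control_24H replicate 1 (adjusted p = 0.0649) or 2 (0.0707) and with no filter (0.112). Without SP_24H replicate 2 (0.0707) or 3 (0.0544) it was lost too. The 3 that fell at 3 days were the plasmin inhibitor SERPINF2 (−0.85, SE 0.17, adjusted p = 6.93e-04) and, named after their values were seen, the adhesion protein VTN (−0.77, adjusted p = 0.0277) and THBS1 (−0.65, adjusted p = 1.26e-05). The call of VTN was lost without any 1 of the 6 compared libraries (adjusted p 0.0504 to 0.0878). SERPINF2 was the 1 fall at 3 h (−0.68, SE 0.14, adjusted p = 0.0133). That call was lost with only the 2 groups (0.0559) and without SP_3H replicate 2 (0.0547). ENO1, the 1 fall at 24 h, was also named after its values were seen. Its call was lost without Control_24H replicate 1 (adjusted p = 0.0769), SP_3H replicate 1 (0.0507) or any SP_24H replicate (0.0744 to 0.124).

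ADAM and ADAMTS proteases, relatives of the MMPs that shed surface proteins or cleave matrix, were compared as a last list of 12 genes, 10 of them tested over days and 9 over hours. At 3 days 7 rose and 1 fell and at 12 days 5 rose and 1 fell, while 2 rose and 2 fell at 24 h, near the shares of all genes, and 0 passed at 3 h. ADAM15 rose 1.57-fold at 3 days (adjusted p = 4.85e-05) and 1.66-fold at 24 h (adjusted p = 0.00221, and 0.0911 when corrected for GC content and length), and ADAM19 rose 1.69-fold at 3 days (adjusted p = 1.2e-05). ADAMTS1 gave 1 read in Control_3D and 66 in SP_3D, a ratio of 70.5 (95% exact interval 12.2 to 2826). It too is counted among the rises at 3 and 12 days but passed the filter through the SP libraries, so its calls are no support for a change of the list. ADAM12, at 9.69 CPM in Control_24H and 4.55 CPM in SP_24H, fell by 1.10 on the log2 scale (SE 0.23, adjusted p = 0.00655). ADAMTS9, a secreted protease of proteoglycans, fell by 0.60 at 3 days (SE 0.14, adjusted p = 0.00192), by 0.58 at 12 days (SE 0.14, adjusted p = 0.00217) and by 0.87 at 24 h (SE 0.16, adjusted p = 0.00355).

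The courses of the 8 tested genes over the 18 libraries were set beside each other and beside 16654 genes tested in both tables, as Pearson's r of log2 CPM deviations from the control mean of the same table. These values describe libraries that share controls and depth, and carry no test. MMP15 and TIMP2 ran closest (r = 0.964), and TIMP2 was near MMP2 (0.910) and PLAUR (0.813), while MMP24 was near PLAU (0.802) and MMP7 ran against MMP14 (−0.872). The genes most like MMP15 were KIRREL2 (0.989) and FADS3 (0.988), those most like TIMP2 were ADGRG1 (0.992) and PGAP6 (0.986), and those most like MMP2 were COL26A1 (0.986) and SULF2 (0.963). For MMP7 they were ME1 (0.948) and GBP3 (0.925), for MMP14 POFUT2 (0.959) and ENSG00000265678 (0.934), for MMP24 SUMF1 (0.917) and C19orf12 (0.912), for PLAU DGCR8 (0.946) and RGS19 (0.93), and for PLAUR WLS (0.939) and ITPR3 (0.917).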

How the data were processed

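RNA-seq of A549 cells was taken from 2 tables of raw counts per Ensembl gene. The authors extracted total RNA with the miRNeasy kit, prepared NEBNext Ultra libraries, sequenced paired ends on a NovaSeq instrument, aligned with STAR 2.7.9a to GRCh38 and counted with featureCounts in R 4.2.1, and the deposited counts are not normalized. Strandedness and the handling of multi-mapping reads are not given in the sources used here, so shared exons are named as a limit.

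Counts were fitted in R 4.3.3 with edgeR 4.0.16 (filterByExpr with a minimum count of 10, TMM factors, robust quasi-likelihood, all 9 libraries of a table, a term for group). This left 17775 and 17377 genes, 18785 in the joint fit, with Benjamini-Hochberg adjustment over all of them. The median SE of a log2 fold change was 0.13 at 3 days and 0.201 at 24 h. The test was also run on counts simulated from its own fitted model, which cannot show how it behaves where libraries deviate together. Alternatives were RLE factors, other filters, DESeq2 1.42.0, only the 2 groups compared, a replicate block, an offset for GC content and length, and leaving out each library. TPM used the union of exons of GENCODE v44, and 61369 of 61541 genes had a length. Ratios of summed reads carry exact 95% intervals, and a count of 0 was read as up to 3 counts.

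Libraries with the same number deviated together between SP_24H and Control_24H (correlations 0.499, 0.17 and 0.504, or 0.375, 0.21 and 0.361 with that offset). As counted, however, SP_24H replicate 2 correlated as much with Control_24H replicate 3 (0.175), so pairing by number is not shown for it. The labels give the numbers but name no pairing. The main fit holds no block, and the replicate block was run as an alternative. In the other comparisons with control at least 1 correlation lay at or under 0.1 (−0.592 to 0.162).

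The 10 genes and the lists were chosen with earlier results of these data known. Genes outside the 10 are named by a rule: the 3 largest changes past the threshold per list, in every comparison with control, given a mean of 10 or more counts in either group, with TIMP1, PLAT and MMP9 in any case, and for likeness the 2 genes with the highest correlation. Of the plasminogen list, 1 gene is not reported here.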

Additional observations from a re-analysis of the deposited data

Results flagged for a closer look

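In all, 5 differences between times passed the test of the difference itself. In those between SP groups, time with SP and time in culture cannot be told apart. MMP7 was higher at 12 than at 3 days of SP (log2 0.36), and MMP15 was lower (log2 −0.39). MMP15 (log2 1.13) and TIMP2 (log2 1.24) were higher at 24 h than at 3 h of SP. The change of MMP24 at 3 days exceeded that at 24 h by 0.78 on the log2 scale. With 3 libraries a group, single libraries could not be screened for outliers.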

How the results depend on the processing

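Under other settings, 384 log2 fold changes of the 8 tested genes kept their direction and their side of the threshold, 30 passed it newly, 6 lost it and 4 changed sign. With 1 library left out these numbers were 458, 16, 38 and 16. The number of genes past an adjusted p of 0.05 was 1 at 3 h and 1 between 12 and 3 days when only the 2 groups compared were fitted. Between 24 h and 3 h of SP it was 4 with no filter on low counts, with the replicate block, with the GC content and length offset and with DESeq2, and 5 with offset and block together or with only the 2 groups. At the study's thresholds the 24 h comparison held 1 gene with the offset, 1 with offset and block, and 2 with DESeq2. Shares of all genes under other settings are not given here, so the counts of this paragraph are not set against them. With 1 library left out, the counts past 0.05 ran from 4 to 6 at 3 days, 3 to 5 at 12 days, 1 to 3 at 3 h and 3 to 7 at 24 h. They ran from 0 to 5 for 12 against 3 days, 0 to 5 for 24 h against 3 h and 0 to 2 for the difference between 3 days and 24 h. The replicate block gave 3 at 3 h and 6 at 24 h, and 5 at both 3 days and 12 days.

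Values that changed sign all had an adjusted p above 0.05. With the GC content and length offset they were −0.16 for MMP24 between 24 h and 3 h (−0.17 with the block), 0.045 for the difference of TIMP2 and 0.023 for that of PLAUR. With 1 library left out, MMP2 ran from −0.44 to 0.12 at 3 h and from −0.14 to 0.13 between 12 and 3 days, MMP14 from −0.042 to 0.60 at 12 days, MMP24 from −0.080 to 0.18 between 24 h and 3 h, and PLAUR from −0.15 to 0.15 at 3 h and from −0.034 to 0.10 between 12 and 3 days. The differences between 3 days and 24 h ran from −0.064 to 0.48 for MMP15, −0.43 to 0.24 for TIMP2 and −0.35 to 0.0073 for PLAUR. The cause of these changes was not tested. Equal numbers mark no shared culture in the labels, also at 24 h, and their correlations are given with the methods. In comparisons other than SP_24H against Control_24H, the block lifted PLAUR at 12 days past the threshold (adjusted p = 0.0333). It moved no call at 3 days or 3 h, while MMP2 (1.07, adjusted p = 0.029) and MMP7 (−0.60, adjusted p = 0.0243) passed between 24 h and 3 h.

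MMP1, MMP10 and MMP14 were limited by depth, with at most 37 reads a group for the first pair and 72 reads for MMP14 in Control_24H.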
